A study of Mus musculus with 4 samples.

Results

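The defensin genes were taken as every row of the table whose symbol starts with Defa or Defb, which gave 47 of 46406 rows. Of these, 40 were beta-defensin genes, 1 was the beta-defensin pseudogene Defb44-ps and 6 were alpha-defensin pseudogenes (Defa-ps10 to Defa-ps15). No alpha-defensin row without -ps in its symbol was among them, so the alpha values below come from pseudogene rows only, and the functional alpha-defensin genes were not analysed here. The data are ATAC-seq of J1 cells, a mouse embryonic stem cell line, in which the Tn5 transposase cuts and tags open DNA. There were 2 control libraries, labelled wild type, and 2 libraries of cells labelled Zscan4 OE for overexpression of Zscan4, a zinc finger protein of the 2-cell embryo. All came from cells grown without feeders, at a passage the labels give as PN+8. The sources used here give neither the means of overexpression nor whether replicates were separate cultures. The p-values therefore reflect the spread of these 4 libraries alone, which may be technical.

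Defensins are short cationic peptides, held in shape by disulfide bridges, that damage microbial membranes. In mice the alpha-defensins, also called cryptdins, are made by Paneth cells at the base of the small intestinal crypts and are cut to their active form by the matrix metalloprotease Mmp7. The beta-defensins are made by epithelia such as skin, airway, kidney and, for many members, the epididymis, where some coat sperm. Both are small genes in tandem clusters. Embryonic stem cells belong to none of these tissues, so their exons are a case of gene bodies outside the cells that use them. The study asked how Zscan4 changes chromatin accessibility, and for defensins the comparison is whether their exons gained or lost reads.

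All 47 rows matched the RefSeq annotation of GRCm38.p6, the assembly behind mm10, by symbol. They fell into 4 clusters. The chromosome 8 cluster (18974914 to 21948622) held 28 members, including all 6 alpha rows. The chromosome 2 cluster (152459055 to 152623053) held 11, the chromosome 14 cluster (62977524 to 63048606) held 5 and the chromosome 1 cluster (18210053 to 18265138) held 3. A value in the table covers a feature whose length could be recovered for 46 members, from 129 to 2425 bp with a median of 355.5 bp, against 1613 bp over all rows with reads. The length was below that of the RefSeq gene for 45 of the 46, with a median of 11.3% of it (Defb44-ps has 219 bp of a gene of 13512 bp). It was above it for Defb42, with 2425 bp against 1616 bp, and close to it for Defa-ps10, with 171 bp of 185 bp. The values are read here as those of exons for that reason, which is an inference from length, and for Defb42 the authors' gene model and that of RefSeq differ.

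Only Defb30, Defb36 and Defb42 had reads in all 4 libraries, and their promoter windows are shown for that reason. Each runs from 250 bases before to 50 bases after the annotated start, is written 5′ to 3′ on the gene's strand as given by RefSeq for GRCm38.p6, and has CG dinucleotides in capitals. Defb30 lies at chr14:63037797-63038096 on the minus strand, Defb36 at chr2:152604077-152604376 on the plus strand and Defb42 at chr14:63046741-63047040 on the plus strand.
Defb30: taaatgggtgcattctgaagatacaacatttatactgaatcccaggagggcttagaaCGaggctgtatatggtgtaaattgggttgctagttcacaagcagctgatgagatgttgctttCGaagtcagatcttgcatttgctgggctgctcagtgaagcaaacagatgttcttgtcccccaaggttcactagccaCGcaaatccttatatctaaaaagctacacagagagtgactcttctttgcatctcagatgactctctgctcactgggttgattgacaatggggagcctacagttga
Defb36: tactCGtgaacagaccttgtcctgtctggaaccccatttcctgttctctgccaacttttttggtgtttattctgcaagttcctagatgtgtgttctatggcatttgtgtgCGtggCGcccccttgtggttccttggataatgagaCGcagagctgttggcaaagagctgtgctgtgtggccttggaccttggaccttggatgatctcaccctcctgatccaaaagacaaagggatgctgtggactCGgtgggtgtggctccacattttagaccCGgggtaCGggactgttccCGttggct
Defb42: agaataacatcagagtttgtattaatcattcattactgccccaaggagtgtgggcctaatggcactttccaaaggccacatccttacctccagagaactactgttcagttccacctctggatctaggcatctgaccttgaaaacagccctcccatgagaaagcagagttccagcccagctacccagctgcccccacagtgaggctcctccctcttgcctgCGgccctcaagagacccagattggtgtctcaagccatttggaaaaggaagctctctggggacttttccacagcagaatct
The windows held 3, 8 and 1 CG dinucleotides in that order. A window was found for 27 of the 47 members, with 1 window counted per gene. Their median was 2 CG, with a range of 0 to 8, and a median base content of 48.3% G and C. Over the 19536 windows of all rows in the table the medians were 12 CG and 55.7%. Windows with 5 CG or fewer made up 85.2% of the members' and 34.1% of all, against 98.1% of 918 olfactory receptor windows. The motif TATAAA, searched on both strands, was in 5 of the 27 windows (18.5%) and in 12.9% of all. It was in 41% of the olfactory receptor windows and 32.3% of 217 vomeronasal receptor windows, more than among the members. In 8 of the 27 windows, all but 1 of them on chromosome 8, at least 1 run of 30 bases was shared with another gene's window. The member outside chromosome 8 was Defb21, with 34.3% of its runs shared. These windows are promoters and not the counted exons, so the sharing does not measure how far the counts are affected. The sources used here do not say how the authors' counting treated reads that match several copies, so values of the tandem members are uncertain by an unknown amount.

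The libraries were shallow. Their totals ran from 1061428 reads in control 1 to 2903602 in control 2, 3605774 in Zscan4 OE 1 and 4899494 in Zscan4 OE 2, so that 68.2% of all reads were in the Zscan4 OE libraries. Which total belongs to which library was worked out from the values and was not given in the labels, and every RPM below rests on it. A count of 0 is taken throughout to allow up to 3 reads, which is 2.83 reads per 1000000 library reads (RPM) in control 1, 1.03 in control 2, 0.832 in Zscan4 OE 1 and 0.612 in Zscan4 OE 2. Intervals below are 95% and cover counting error only, while replicates differed by more than that. The chi-square per degree of freedom was 2.33 for the pair of controls and 1.91 for the Zscan4 OE pair. Across cells of a culture, more cells with open chromatin and more open chromatin per cell cannot be told apart. Exons of 9 embryonic stem cell marker genes had 1.59 and 1.09 reads per kb per 1000000 library reads in controls 1 and 2, then 2.26 and 1.32 in Zscan4 OE 1 and 2. Those of 4 Paneth cell markers had 0.901, 1.07, 0.862 and 1.27, and those of 5 epididymis markers 0.802, 0.821, 0.614 and 0.66 in the same library order.

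The 47 defensin rows together had 213 reads, with 14 in control 1, 35 in control 2, 72 in Zscan4 OE 1 and 92 in Zscan4 OE 2. The median member had 4 reads over all libraries, 33 members had between 1 and 5, and 4 members (Defb42, Defb36, Defb44-ps and Defb26) had 10 or more. The 5 members with most reads held 32.4% of them. Defb34 had no read in any library. A further 7 members (Defa-ps14, Defa-ps15, Defb2, Defb7, Defb11, Defb18 and Defb37) had a single recovered read each. In a row with 1 value above 0, a common factor of reads and length cannot be seen, so the true count could be higher. Single members therefore stood at or near the limit that a count of 0 allows, and the family's sums carry most of what can be measured.

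**Figure D1:**
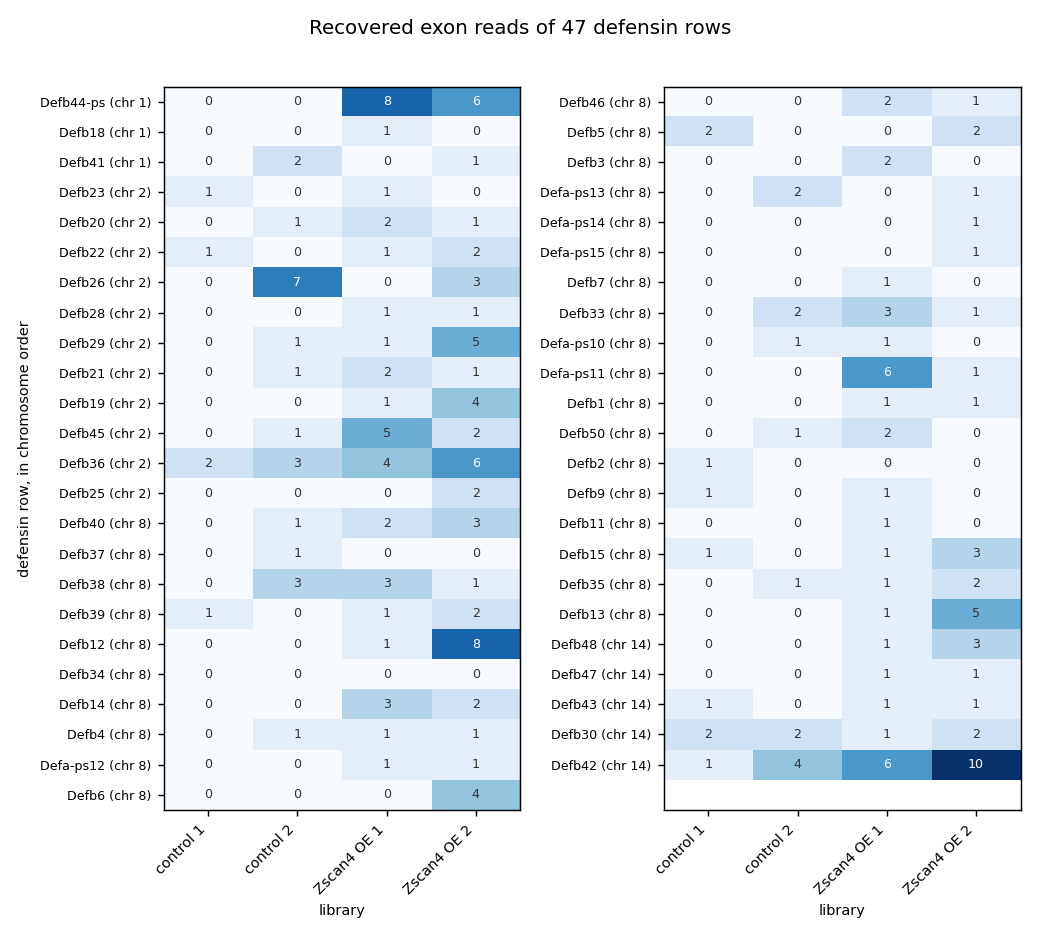
Recovered exon reads of each of the 47 defensin rows (vertical, in chromosome order) in the 4 libraries (horizontal), with the count printed in each cell and a darker cell for more reads. The highest single count is 10, for Defb42 in Zscan4 OE 2, and 38 of the 47 members have 4 reads or fewer in every library.

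Among the members with most reads the libraries did not order in 1 way. Defb42, a beta-defensin gene on chromosome 14 (63046991 to 63048606) known from the epididymis, led with 1 and 4 control reads, then 6 and 10 under Zscan4 OE. Its control level was 0.478 ± 0.127 RPKM, against 0.764 ± 0.11 under Zscan4 OE (SD, n = 2), and the groups did not overlap. Defb36, on chromosome 2 (152604327 to 152612729), had 2 and 3 control reads, then 4 and 6 under Zscan4 OE. Per library depth this was 3.12 ± 1.29 RPKM against 2.49 ± 0.174 (SD, n = 2), so the groups overlapped and the mean was lower in Zscan4 OE although its reads were more. Defb30, on chromosome 14 (63034087 to 63037846), had 2 reads in each control, then 1 and 2 under Zscan4 OE, or 0.965 ± 0.634 against 0.257 ± 0.0694 RPKM (SD, n = 2). Its groups did not overlap, with both controls above. Defb26, on chromosome 2, had 7 reads in control 2, 3 in Zscan4 OE 2 and 0 in the others, so replicate number and not group separated its libraries.

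Reads that were present in Zscan4 OE and absent from both controls were the most frequent pattern after reads in both groups. Defb44-ps, annotated as a transcribed pseudogene on chromosome 1 (18210053 to 18223564), had none in either control, then 8 and 6 reads under Zscan4 OE. Its level in Zscan4 OE was 7.86 ± 3.21 RPKM (SD, n = 2). With its 14 reads taken as they stand, without counting error, it was 2.18-fold above a floor of 3 reads over both controls pooled. This is not a minimum fold. In control 1 alone a count of 0 allows 2.83 RPM, above the 2.22 and 1.22 RPM of Zscan4 OE 1 and 2. Defb12 on chromosome 8 had 0, 0, 1 and 8 reads in the order controls 1 and 2, Zscan4 OE 1 and 2, so that 1 library held nearly all of them. Defa-ps11, the alpha pseudogene with most reads, had 0, 0, 6 and 1, again mostly in 1 library. Defb14, whose human counterpart is an inducible skin defensin that also binds the chemokine receptor Ccr6, had 0, 0, 3 and 2. Defb19 had 0, 0, 1 and 4, Defb46 had 0, 0, 2 and 1, and Defa-ps12 had 0, 0, 1 and 1. No fold is given for these. In all, 12 members lacked control reads and were read in each Zscan4 OE library, which is 26.1% of the 46 tested members against 6.2% of all tested rows. Most of those rows had more reads than the members, and rows with few reads often lack control reads. Among rows with 1 or 2 reads, 11 of 16 members had no control read, against 59.3% of all rows, and with 3 or 4 reads 3 of 14 members against 30.4%. With 5 to 7 reads it was 4 of 10 members against 16.2%, with 8 to 12 reads 1 of 3 against 6.12%, and with 13 to 21 reads 1 of 3 against 1.76%. The members' share was thus above that of all rows with as many reads in some ranges and below it at 3 or 4 reads. A further 8 had reads in 1 Zscan4 OE library only. The reverse, reads in both controls and none in Zscan4 OE, was found in 0 members and in 0.516% of all tested rows. Defb2, which is inducible in the airway, had its 1 read in control 1, and Defb37 its 1 read in control 2. Defb45, Defb29 and Defb38, the remaining members among the 10 with most reads, had 0, 1, 5 and 2, then 0, 1, 1 and 5, then 0, 3, 3 and 1 reads in the same library order. Defb41, with one of the 5 lowest statistics, had 0, 2, 0 and 1.

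Summed by class, the beta-defensin genes were higher in Zscan4 OE than in the controls by a small margin. The 40 beta rows had 13.2 RPM in control 1 (7.21 to 22.1, 14 reads), 11.02 in control 2 (7.54 to 15.6, 32 reads), 15.5 in Zscan4 OE 1 (11.7 to 20.2, 56 reads) and 16.5 in Zscan4 OE 2 (13.1 to 20.5, 81 reads). Both Zscan4 OE values lay above both control values, though each control's interval overlapped the intervals of Zscan4 OE 1 and 2. The group means of 12.1 ± 1.53 and 16.03 ± 0.708 RPM (SD, n = 2) differed 1.32-fold. These SDs rest on 2 libraries each, and the counting interval of every library was wider than either SD. The exact two-sided permutation p was 0.333, the smallest that 2 against 2 libraries can give. Zscan4 OE held 74.9% of the beta reads (67.9% to 81%, exact binomial), an interval that includes the 68.2% of depth in those libraries.

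The alpha pseudogene rows had too few reads to compare. Their sums were 0 RPM in control 1 (0 reads, which allows up to 2.83), 1.03 in control 2 (0.213 to 3.02, 3 reads), 2.22 in Zscan4 OE 1 (0.958 to 4.37, 8 reads) and 1.02 in Zscan4 OE 2 (0.331 to 2.38, 5 reads). The groups overlapped, and the means of 0.517 ± 0.731 and 1.62 ± 0.847 RPM (SD, n = 2) gave an exact two-sided permutation p of 0.667. The ratio of 3.14 was 1.57 without control 1, which had no read, 1.98 without Zscan4 OE 1 and 1.33 without Defa-ps11. The 7 -ps rows together, which add Defb44-ps, had 0, 1.03, 4.44 and 2.25 RPM from 0, 3, 16 and 11 reads in the same order, with no overlap between groups. Their ratio of 6.47 was 3.14 without Defb44-ps and 3.23 without control 1.

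**Figure D2:**
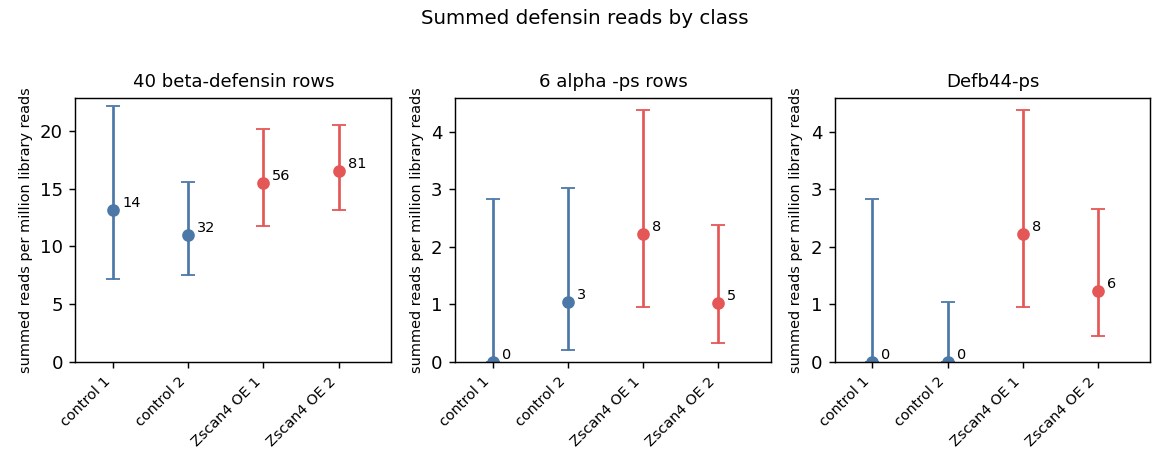
Summed RPM (vertical) in each library (horizontal) for the 40 beta-defensin rows, the 6 alpha pseudogene rows and Defb44-ps, with exact Poisson 95% intervals as bars (for a count of 0, up to 3 reads) and the number of reads beside each point (controls blue, Zscan4 OE red). The beta points lie between 11.02 and 16.5, and Defb44-ps has reads in Zscan4 OE only.

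Per length, a difference between alpha and beta rows was not detectable at this depth. Over all 4 libraries the alpha rows had 16 reads and the beta rows 183, and the density of alpha over beta was 1.06 (0.593 to 1.77). Within libraries the ratio was 0 in control 1 (up to 3.65), 1.14 in control 2 (0.223 to 3.63), 1.73 in Zscan4 OE 1 (0.713 to 3.65) and 0.748 in Zscan4 OE 2 (0.237 to 1.82). The ratios overlapped between the groups (exact two-sided permutation p = 0.667). The direction of the pooled ratio depended on single rows and libraries: it was 0.738 without Defa-ps11, 0.763 without Zscan4 OE 1 and 0.996 with Defb44-ps counted among the beta rows. Defb44-ps itself stood at 12.3 times the density of the other beta rows in Zscan4 OE 1 (5.05 to 25.9) and 6.37 times in Zscan4 OE 2 (2.27 to 14.5). Its ratio was 0 in control 1 (up to 25.9) and 0 in control 2 (up to 10.5), ranges that overlap both Zscan4 OE intervals. Defb44-ps was singled out after its values were seen.

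All defensin rows together gave 13.2 RPM in control 1 (7.21 to 22.1), 12.1 in control 2 (8.4 to 16.8), 19.97 in Zscan4 OE 1 (15.6 to 25.1) and 18.8 in Zscan4 OE 2 (15.1 to 23.03). The means of 12.6 ± 0.803 and 19.4 ± 0.842 RPM (SD, n = 2) differed 1.53-fold, again with the smallest possible exact permutation p of 0.333. The ratio was 1.4 without Defb44-ps and 1.47 with the reads on all rows as the denominator, and it ran from 1.47 to 1.61 when any 1 library was left out. Zscan4 OE held 77% of the defensin reads (70.8% to 82.5%) and 75.4% without Defb44-ps (68.8% to 81.2%). Over all rows of the table Zscan4 OE held 70.1%, over olfactory receptor rows 68.4% (67.6% to 69.1%) and over vomeronasal receptor rows 68.3% (66.5% to 70%). The interval of the defensin share lay above each of these values, though its lower bound was close to that of all rows. Without Defb44-ps the interval included the share of all rows and overlapped those of both receptor families. Shares of the small marker and pathway sets lay on both sides of the defensin share. They ran from 62.7% (48.1% to 75.9%) for the 5 epididymis marker rows to 81.8% (71.4% to 89.7%) for the 3 receptor rows of the defensin pathway. The 9 embryonic stem cell marker rows had 75.1% (71.4% to 78.6%). Each of these intervals overlapped that of the defensin rows.

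No defensin row passed the test across all rows. Of 42989 rows tested with limma 0 were higher and 0 lower at a Benjamini-Hochberg adjusted p under 0.05, a background of 0% in each direction, and 0 of the 46 tested members were called. At an unadjusted p under 0.05 there were 10 members with higher and 0 with lower values, 21.7% of members against 5.09% of all tested rows with higher values and 1.33% with lower. Each of the 10 had 0 reads in both controls. Groups did not overlap in 15 members with higher values in Zscan4 OE, 32.6% against 19.6% of all tested rows. Of these 15, 12 had 0 reads in both controls. In the other direction it was 1 member, Defb30, against 10.1%. A log2 difference above 0 was found in 35 members, 76.1% against 62%. None of these shares was matched for reads per row, and rows with few reads often lack control reads, so they are no measure of enrichment. Defb44-ps had the largest statistic, with a log2 difference of 6.25 (SE 0.572, limma adjusted p = 0.156), followed by Defb14 with 4.89 (SE 0.711, adjusted p = 0.166), Defb46 with 4.35 (SE 0.833, adjusted p = 0.263), Defa-ps12 with 3.74 (SE 0.795, adjusted p = 0.333) and Defb19 with 3.72 (SE 0.92, adjusted p = 0.443). All 5 had 0 reads in both controls, so these differences depend on the 0.1 RPKM added before taking logs and are no measure of fold. A fit with 1 Zscan4 OE library left takes a row's spread from the controls alone. That spread is 0 for a row with 0 reads in both controls, so such a fit cannot test these members. Its calls include members with a single read, such as Defa-ps14 and Defb7, and no conclusion is drawn from them. Leaving out Zscan4 OE 1 took the members called to 16, and leaving out Zscan4 OE 2 took them to 14, each with 0 reads in both controls. In these fits 10.5% and 9.05% of all tested rows were called higher. Leaving out either control gave 0 members.

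The members' median log2 difference was 1.61 against 0.28 over all tested rows, and both medians varied with the number of reads and with rows that had none in the controls. Among rows with 1 or 2 reads the median was 1.69 for 16 members and 1.43 for all 6435 rows. The summed reads of all 6435 rows nevertheless differed only 0.993-fold between the groups. Among rows with 5 to 7 reads it was 2.24 for 10 members and 0.83 for all, and among rows with 13 to 21 reads 0.59 for 3 members and 0.25 for all. Taking only rows with reads in both groups left 24 members with a median of 0.83 against 0.14 over all such rows. Only 3 members (Defb30, Defb36 and Defb42) had reads in both controls, so most of these 24 values still depend on the 0.1 RPKM added. These rows were not matched for reads per row either. With each row that was at 0 in 1 group set to its bound against 3 reads, and rows at or under 3 reads in both groups left out, 18 members had a median of 0.30 and all rows 0.16. Of the 18, 14 passed this limit through their Zscan4 OE reads alone and 4 (Defb26, Defb30, Defb36 and Defb42) had more than 3 control reads, so the median of 0.30 supports no direction.

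**Figure D3:**
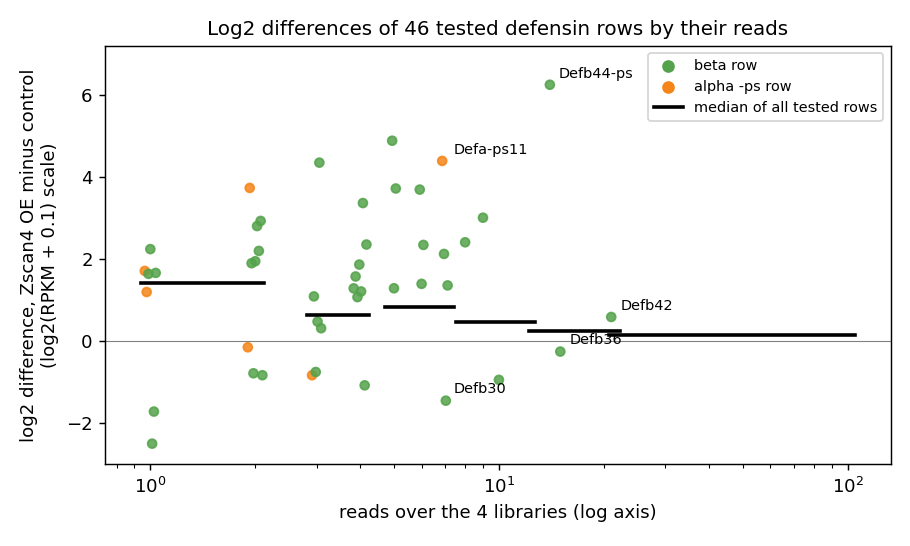
Log2 difference between Zscan4 OE and control on the log2(RPKM + 0.1) scale (vertical) against reads over the 4 libraries (horizontal, log axis) for the 46 tested defensin rows, spread slightly sideways where reads are equal; green points are beta rows, orange points alpha pseudogene rows and black lines the median of all tested rows in that range of reads. Defb44-ps lies highest at 6.25, and the black lines fall from 1.43 at 1 or 2 reads to 0.25 at 13 to 21 reads.

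By cluster, the 28 chromosome 8 members had control sums of 5.65 and 4.48 RPM against 9.71 and 8.37 under Zscan4 OE, with 80% of 95 reads in Zscan4 OE (70.5% to 87.5%). The 37 other rows inside or beside that cluster, taken as all rows within it and the 5 nearest on each side, had 70.8% (68% to 73.6%), with 90.4 and 72.3 RPM in controls 1 and 2 against 106.2 and 73.5. Their 2 rows with most reads were Agpat5, an acyltransferase gene with 18, 34, 61 and 57 reads, and Mcph1, a gene of chromosome condensation with 10, 28, 57 and 45. Both lie beside the cluster. The 27 rows inside it held 194 of the 1049 neighbour reads, with 72.2% in Zscan4 OE (65.3% to 78.3%). They include Gm6040 and Gm15056, which RefSeq also lists under defensin names. The members' share was the higher, and the intervals of members and neighbours overlapped. On chromosome 1 the 3 members had control sums of 0 and 0.689 RPM against 2.5 and 1.43 under Zscan4 OE, and 14 of their 18 reads were those of Defb44-ps. The 11 neighbours there had 67.8% of reads in Zscan4 OE (60.9% to 74.3%), or 18.8 and 15.2 RPM against 18.9 and 13.7, led by Crispld1 with 7, 19, 26 and 33 reads and Tfap2d, a transcription factor gene, with 5, 8, 13 and 4.

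On chromosomes 2 and 14 the members' share in Zscan4 OE was below that of their neighbours, with overlapping intervals. The 11 chromosome 2 members had control sums of 3.77 and 4.82 RPM against 4.99 and 5.51 under Zscan4 OE, with 71.4% of 63 reads in Zscan4 OE (58.7% to 82.1%). The 13 neighbours, led by H13 with 12, 13, 44 and 51 reads and Sox12 with 8, 17, 37 and 43, had 74.4% (70% to 78.4%), or 38.6 and 24.1 RPM against 43.5 and 33.7. The 5 chromosome 14 members had control sums of 3.77 and 2.07 RPM against 2.77 and 3.47 under Zscan4 OE with overlap between groups, and 73% of 37 reads were in Zscan4 OE (55.9% to 86.2%). Their 11 neighbours, led by Fdft1 with 12, 14, 31 and 40 reads and the long non-coding gene Gm26536 with 9, 11, 26 and 42, had 78.5% (74% to 82.6%), or 37.7 and 14.1 RPM against 36.9 and 33.3, with control 1 the highest library and control 2 the lowest. In all 4 sets of neighbours the groups overlapped. The differences between clusters were not tested beyond these intervals.

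Defensin exons had more reads per length than the exons of other large tandem families that embryonic stem cells do not use. The density of all defensin rows was 0.641 and 0.585 reads per kb per 1000000 library reads in controls 1 and 2, then 0.97 and 0.912 under Zscan4 OE. Olfactory receptor rows (1346 Olfr rows) had 0.29 to 0.333 over the 4 libraries, and vomeronasal receptor rows (399 Vmn1r and Vmn2r rows) 0.249 to 0.266. Defensin rows were 2.21 (1.2 to 3.72), 1.79 (1.24 to 2.49), 2.91 (2.27 to 3.67) and 2.93 (2.36 to 3.6) times as dense as olfactory receptor rows in controls 1 and 2 and Zscan4 OE 1 and 2. Against vomeronasal receptor rows the ratios ran from 2.28 to 3.67. Every library showed the same direction, and the exact two-sided sign-flip test over 4 libraries gave p = 0.125 for each family, the smallest it can give. Protein-coding rows as a whole had 1.07, 0.808, 1.11 and 0.864, and the ratio of defensin rows to them was 0.6 (0.328 to 1.01), 0.724 (0.504 to 1.01), 0.873 (0.683 to 1.1) and 1.06 (0.851 to 1.29). Here the intervals of all 4 libraries reached or crossed 1, so no difference was detectable within a library when rows were not matched for length. For the 40 beta rows alone the ratio was 0.656 (0.359 to 1.1), 0.724 (0.495 to 1.02), 0.743 (0.561 to 0.965) and 1.02 (0.808 to 1.26), and 0.83 over all libraries (0.714 to 0.959). The intervals in Zscan4 OE 1 and over all libraries lay below 1, and the exact two-sided sign-flip p over the 4 libraries was 0.25. Between the groups the ratios of all defensin rows did not overlap, with the smallest possible exact permutation p of 0.333.

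**Figure D4:**
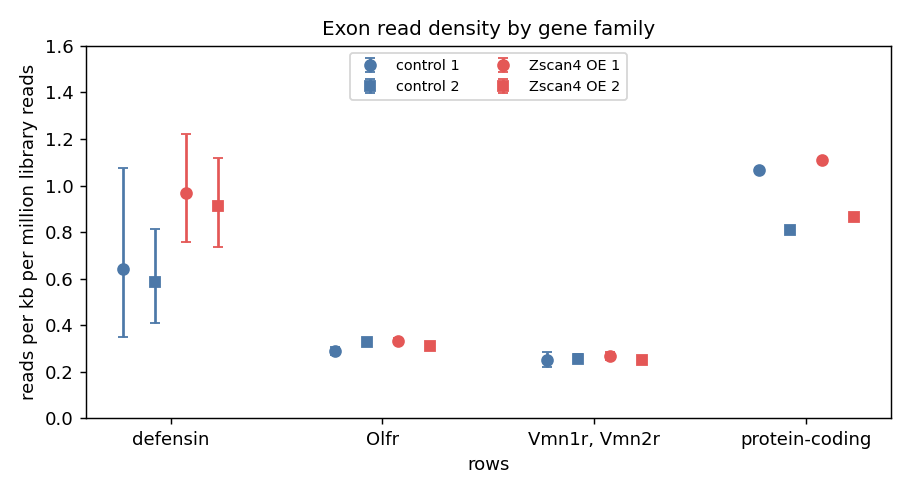
Reads per kb of recovered feature length per 1000000 library reads (vertical) for defensin, olfactory receptor, vomeronasal receptor and protein-coding rows (horizontal), with 1 point per library and exact Poisson 95% intervals as bars (controls blue, Zscan4 OE red). Defensin points lie between 0.585 and 0.97, above both receptor families in every library.

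Feature length moved with this comparison. Median recovered lengths were 355.5 bp for defensin rows, 2633.5 bp for olfactory and 2255 bp for vomeronasal receptor rows, and over all rows the density fell with length, from 2.65 ± 0.681 reads per kb per 1000000 library reads under 200 bp to 0.854 ± 0.107 at 5000 bp or more (SD, n = 4 libraries). A row with no read in any library has no recovered length and is left out of these densities, which raises the density of short rows. This held for 1 of 47 defensin rows, 44 of 1346 olfactory and 52 of 399 vomeronasal receptor rows. Set beside rows of like length, the 13 defensin rows of 300 to 399 bp had 0.658 ± 0.288, all 2054 rows 1.34 ± 0.361 and 17 olfactory receptor rows 0.516 ± 0.162 (SD, n = 4). At 400 to 599 bp the values were 0.944 ± 0.27 for 11 defensin rows, 1.07 ± 0.211 for all rows and 0.434 ± 0.0927 for 37 olfactory receptor rows. At 200 to 299 bp, where Defb44-ps stands, they were 1.44 ± 0.741, 1.73 ± 0.481 and 0.7 ± 0.184. From 200 to 599 bp the means of defensin rows lay between those of olfactory receptor rows and of all rows, and the SDs of defensin and olfactory receptor rows overlapped at 200 to 299 and at 300 to 399 bp. Under 200 bp the 4 defensin rows, at 0.802 ± 0.893, were below the 6 olfactory receptor rows at 1.19 ± 1.32 and all rows at 2.65 ± 0.681, with overlapping SDs between the families. At 600 to 999 bp the 4 defensin rows, at 0.331 ± 0.0783, were below the 166 olfactory receptor rows at 0.413 ± 0.0371, with overlapping SDs. Longer defensin rows were above olfactory receptor rows. At 1000 to 1999 bp 2 defensin rows had 0.553 ± 0.333 and 252 olfactory receptor rows 0.337 ± 0.0105, with overlapping SDs. At 2000 to 4999 bp the 1 defensin row, Defb42, had 0.621 ± 0.191 and 667 olfactory receptor rows 0.307 ± 0.0217. Protein-coding rows, with a median of 3568 bp, had 1.27 under 200 bp, 0.917 at 200 to 299, 1.13 at 300 to 399 and 1.25 at 400 to 599 bp. They had 1.21 at 600 to 999, 1.27 at 1000 to 1999 and 1.09 at 2000 to 4999 bp. Defensin means were above these at 200 to 299 bp and below them in every other range. The SDs of the 2 sets overlapped below 600 bp and not above it. The part of length in the difference between families was not tested.

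**Figure D5:**
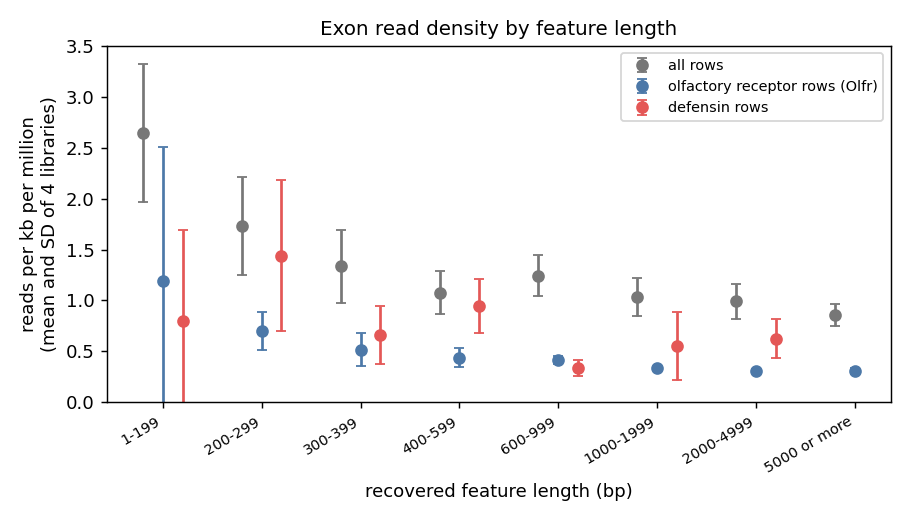
Reads per kb per 1000000 library reads (vertical, mean and SD of 4 libraries) by recovered feature length in bp (horizontal) for all rows, olfactory receptor rows and defensin rows. From 200 to 599 bp the defensin points, at 1.44, 0.658 and 0.944, lie between the other sets.

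Genes listed as related to defensins gave no call. Of 27 rows in the list, all had reads and were tested, the log2 difference was above 0 for 17 and below 0 for 10, 0 passed in either direction, and the median was 0.32 against 0.28 over all tested rows. Their summed reads were divided 70.2% to Zscan4 OE (67.3% to 73%). The 11 other antimicrobial peptides and Paneth cell products had 12.2, 7.92, 7.49 and 10.8 RPM, led by Itln1, a lectin of the gut that binds microbial sugars, with 4, 2, 10 and 20 reads, and Reg3g, an antibacterial lectin, with 4, 4, 1 and 11. Among 3 proteases Furin had 4, 17, 31 and 33 reads and Mmp7 0, 2, 3 and 3. Among 3 receptors Ccr2, a chemokine receptor, had 2, 4, 7 and 22 reads and Tlr4, the lipopolysaccharide receptor, 1, 2, 12 and 12. Among 7 rows listed as regulators, Tcf4 had 25, 49, 50 and 76 reads and Tcf7l2, a mediator of Wnt signalling, 7, 15, 18 and 38. Tcf4 is an E protein gene distinct from Tcf7l2, and no role of it in Paneth cells is claimed here. Among 3 inducers, Stat3 had 18, 26, 40 and 49 reads and Nfkb1 12, 12, 41 and 37. The limma adjusted p was 0.869 or more for each of these 27 rows.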

How the data were processed

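ATAC-seq values of 2 control and 2 Zscan4 OE libraries were used. The deposited values are RPKM, per the labels. Reads were trimmed, aligned or counted with tools that include Bowtie2, Trimmomatic and featureCounts on mm10, as named in the submitters' processing notes. Versions, filters, handling of duplicate and multiply mapping reads, any Tn5 shift of read ends and the annotation used: not given in the sources used here. Deposited RPKM values used 8 library totals in turn from row to row. These 8 were derived with 2484 short RNA genes whose length is annotated. Each row's read counts and length were then the lowest whole numbers that return its values to 9 decimals or 10 significant digits. Exactly 1 rotation was possible for each of the 38361 rows holding at least 2 values above 0. The recovered length was the annotated one for 86.3% of 1158 short RNA genes with 2 or more values. A common factor lost from reads and length would leave both too low, and for Defb37 another rotation was possible and the shortest length was taken. The placement of totals on columns, of 8 in rotation order, was the one with the most alike shares of reads on rows (ratio 1.36 against 4.17 to 10.1), and no placement outside that order was examined. Values were rescaled to each library's own total.

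The test was limma 3.58.1 (R 4.3.3; eBayes with trend, both directions) of log2(RPKM + 0.1), for rows whose mean RPKM reached 0.1. Benjamini-Hochberg adjusted p had to be under 0.05. Sums have exact Poisson intervals, shares exact Clopper-Pearson intervals and density ratios exact conditional binomial intervals (SciPy 1.17.1). The plan held an alpha class without -ps rows, which was empty, so alpha values use the -ps rows. The planned log2 of the density ratio could not be had where control 1 had 0 alpha reads, so the ratio itself was permuted. The recovery and the test were checked on simulated data. Members named were the 10 with most reads and the 5 with the highest and 5 with the lowest moderated statistic. The members and lists were chosen with earlier results of these data known. Alternatives were the pseudocount, filter, scaling, voom, replicate block, members and libraries left out.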

Additional observations from a re-analysis of the deposited data

How the results depend on the processing

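No member was called, and this held under 11 of 13 alternatives for the test across all rows. The other 2, given in the report, left out a Zscan4 OE library. Their spread came from the controls alone, so no conclusion is drawn from their calls. Over all rows 0 were called in the test as planned, 5 with 20 reads or more, 1 with voom at 20 reads or more, and 0 to 4536 when 1 library was left out. Defb42 was the only member with 20 reads or more. The members' median log2 difference relative to all tested rows was 1.33. It was 0.316 with a pseudocount of 1, 2.85 with 0.01, 1.18 with quantile normalization, 0.999 as deposited and 1.1 to 1.92 without 1 library, and Defb42 alone gave 0.452 and 0.23 with voom at 20 reads or more. The 1.32-fold beta ratio was 3.5 as deposited, and that of all defensin rows, 1.53, was 3.99 as deposited and 1.4 without Defb44-ps; the alternatives for all defensin rows were chosen after seeing the data. The alpha over beta density of 1.06 turned to 0.738 without Defa-ps11 and 0.996 with Defb44-ps among the beta rows, and ran from 0.763 without Zscan4 OE 1 to 1.31 when a library was left out. Among named members, signs turned for Defb36 (1.34 as deposited), and across libraries left out for Defb36 (-0.67 to 0.17), Defb26 (-3.67 to 1.79), Defb38 (-1.25 to 3.97) and Defb41 (-2.56 to 1.06). The cause was not tested. The replicate number as a block gave a ratio of 1.54 for all defensin rows and 1.33 for beta rows and changed no call; same-numbered libraries deviated together with r = 0.129 across 19012 rows with 20 reads or more, and the labels do not say that numbers pair libraries. For alpha and -ps rows the block, and a fit without control 2, gave no value because control 1 had 0 reads, and no alpha row was protein-coding. Depth limits every single member.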

Other observations

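Inside the chromosome 8 cluster the table holds 2 further rows that RefSeq annotates with defensin names as synonyms, outside the rule used here. Gm15056 (Defb52) had 1, 2, 1 and 4 reads in controls 1 and 2, Zscan4 OE 1 and 2, and Gm6040 (Defb51) had 1, 1, 1 and 4. Their log2 differences were -0.68 and -0.22, with limma adjusted p of 0.869 and 0.986. Spag11a and Spag11b, epididymal genes related to the beta-defensins and lying between them, had 2, 1, 1 and 3 reads and 1, 2, 1 and 7 reads in that order.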
